A study of Mus musculus with 24 samples.

Results

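Ppp1r1a, Ppp1r1b, Ppp1r2, Ppp1ca, Ppp1cb, Ppp1cc, Prkaca, Prkacb, Prkar1b and Prkar2b encode subunits and inhibitors of protein kinase A (PKA) and protein phosphatase 1 (PP1), and they are 10 of the 55471 genes counted in the hippocampus of CBP-ifKOs and control mice. Ppp1r1a was selected on its own changes between genotypes and between housings in these mice, so its levels and differences are given as a description without p, and nothing is read from its calls where it enters a count. The other 9 genes were chosen by their function in the same pathway, with their changes already known, and their p-values describe them and support nothing further. All 10 genes passed the filter on low counts in every comparison.

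PKA is a tetramer in which regulatory subunits hold catalytic subunits inactive until cAMP binds, and PP1 removes phosphates from many of the proteins that PKA phosphorylates. PKA also acts on PP1 through small inhibitor proteins: inhibitor-1 and its relative DARPP-32 block PP1 once PKA has phosphorylated them, and calcineurin reverses that step. In hippocampal neurons this balance of kinase and phosphatase is known for its part in long-term potentiation, long-term depression and memory.

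Hippocampal RNA of 12 female C57BL/6 mice aged 3 to 6 months was sequenced, with 3 mice in each of 4 groups: control mice in standard cages (SC), CBP-ifKOs in SC, control mice in an enriched environment (EE) and CBP-ifKOs in EE. CBP-ifKOs carry floxed Crebbp alleles and the CaMKIIα-creERT2 transgene, and control mice are littermates without the transgene. All mice, controls included, had received 5 administrations of tamoxifen at 20 mg/ml. The Camk2a promoter limits the recombination to excitatory neurons of the forebrain, and CBP-ifKOs still make a truncated CBP, so RNA of cells that kept the gene is part of every sample.

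Library totals ran from 26874015 to 27971488 counts (median 27669406) in control mice and from 28582210 to 37448388 (median 35010664) in CBP-ifKOs. All 148570 nonzero values of the 6 CBP-ifKOs were even numbers, whereas 86334 of the 158233 of the control mice were odd, so the fits were repeated with the CBP-ifKO counts divided by 2. Levels are given as CPM (counts scaled to the TMM-adjusted library total), or as RPKM (CPM per kilobase of exonic length) where genes are compared with each other. The counts of the 10 genes in single mice ran from 288 for Ppp1cc to 22398 for Prkar1b. Genes were called at an adjusted p below 0.05 in edgeR's quasi-likelihood test with Benjamini-Hochberg adjustment over all genes tested, and changes are log2 fold changes with their standard errors (SE).

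As a check of the labels, Crebbp (ENSMUSG00000022521) had 73.9, 81.9 and 70.7 CPM in the SC-housed control mice and 50.6, 51.6 and 50.0 in the SC-housed CBP-ifKOs. In EE it had 72.3, 77.1 and 69.6 CPM in control mice and 44.5, 48.3 and 46.7 in CBP-ifKOs. Every CBP-ifKO lay below every control mouse, although counts cover the whole gene, with the exons that were not deleted and the cells without Cre. The changes were -0.58 (SE 0.06, edgeR adjusted p = 0.000542) in SC and -0.64 (SE 0.06, edgeR adjusted p = 0.000407) in EE.

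Some libraries stood apart from their groups. Between genotypes in SC, 968 genes were called with all 6 mice and 1908 without control mouse 2, whereas omitting any other mouse lowered the number, to 637 or 435 without control mouse 1 or 3 and 404, 399 or 433 without CBP-ifKO 1, 2 or 3. In EE the number was 805 with all 6 mice and rose to 1016 without control mouse 2, a smaller rise than in SC. It was 701 or 285 without control mouse 1 or 3, and 431, 447 or 286 without CBP-ifKO 1, 2 or 3. EE-housed control mouse 1 held RNA of choroid plexus, where the 6 marker genes of that epithelium summed to 980 RPKM, against 21.6 and 11.6 in the other 2 mice of its group and between 8.23 and 33.4 in the remaining 9. Ttr was the most abundant of the 6 genes, and none of them was at 3 counts or fewer in every mouse. Values of the PKA and PP1 genes that rest on SC-housed control mouse 2 or EE-housed control mouse 1 are given with and without that mouse below.

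Per kilobase, the genes ranged widely in abundance. Prkar1b had the most RNA, with 154 ± 8.90 RPKM (SD, n = 12), followed by Prkaca with 79.1 ± 2.08 and Ppp1ca with 58.0 ± 3.04, and the ranges over mice of these 3 genes did not overlap. Prkacb (45.4 ± 3.27) and Ppp1cb (42.5 ± 1.87) came next and overlapped each other. Ppp1r1a had 46.5 ± 12.8 RPKM over the 12 mice but no single place in this order, with means of 50.1 in SC-housed and 63.8 in EE-housed control mice, where it lay above Ppp1ca (57.4), and of 33.8 and 38.4 in CBP-ifKOs, below Prkacb and Ppp1cb. Prkar2b (14.6 ± 1.06 RPKM), Ppp1r2 (13.2 ± 1.40) and Ppp1r1b (9.17 ± 1.94) formed an overlapping lower group, and Ppp1cc lay below all of them at 3.35 ± 0.252. Among the 18251 genes tested over the 12 mice, Prkar1b stood at percentile 99.2 of RPKM and Ppp1cc at percentile 48.5. The coefficient of variation of RPKM over the 12 mice was 27.5% for Ppp1r1a and 21.1% for Ppp1r1b, but 2.62% for Prkaca.

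**Figure D1:**
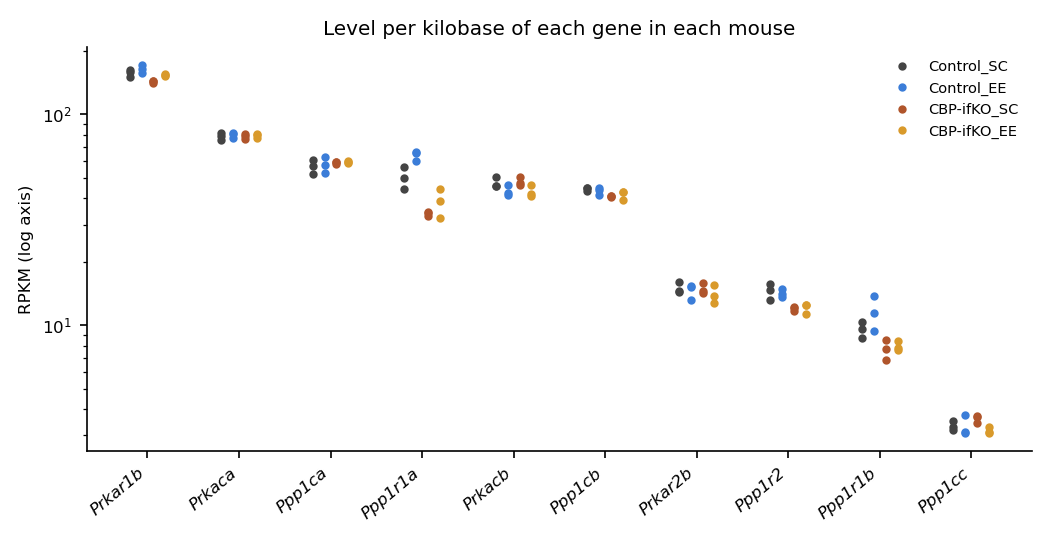
RPKM on a log axis for each PKA and PP1 gene, with 1 point per mouse, colours for the 4 groups and the genes in order of their mean over 12 mice. Prkar1b lies highest at 154 RPKM and Ppp1cc lowest at 3.35.

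Shares of each family were taken from summed RPKM, and they depend on the exonic length used for each gene. By mean CPM, which takes no account of length, Ppp1cb (464) lay above Ppp1ca (146), and Prkacb (398) above Prkaca (197). Which of these forms supplied most transcripts is therefore not settled by the shares. Among the PP1 catalytic subunits, Ppp1ca supplied 55.8%, Ppp1cb 40.9% and Ppp1cc 3.23% of a sum of 104 ± 2.77 RPKM (SD, n = 12). Ppp1cc shares stretches of sequence with another gene, as given below, so its level and share may be too low. Prkaca supplied 63.6% and Prkacb 36.4% of the PKA catalytic sum of 124 ± 2.65 RPKM. For the regulatory subunits, which were summed with Prkar1a and Prkar2a from outside the 10 genes, type I subunits took nearly all of 370 ± 10.5 RPKM: Prkar1a 51.6% and Prkar1b 41.7%, against 3.95% for Prkar2b and 2.78% for Prkar2a. Of the 3 inhibitors, Ppp1r1a supplied 66.9%, Ppp1r2 19.7% and Ppp1r1b 13.4%.

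Ppp1r1a encodes inhibitor-1, which blocks PP1 when PKA has phosphorylated it. It had 73.8, 57.6 and 65.0 CPM in SC-housed control mice and 44.3, 45.1 and 43.0 in SC-housed CBP-ifKOs. In EE it had 85.5, 78.0 and 86.4 CPM in control mice and 42.0, 50.4 and 57.9 in CBP-ifKOs. Each CBP-ifKO lay below each control mouse of either housing except for EE-housed CBP-ifKO 3, which lay just above SC-housed control mouse 2, and the 3 EE-housed control mice lay above the 3 SC-housed ones. The genotype difference of Ppp1r1a was -0.57 (SE 0.08) in SC and -0.73 (SE 0.10) in EE, and the difference between EE and SC was 0.35 (SE 0.10) in control mice and 0.18 (SE 0.10) in CBP-ifKOs. The genotype by housing difference was -0.16 (SE 0.14), and between -0.28 and -0.05 with 1 mouse left out. Without EE-housed CBP-ifKO 3 the EE difference in CBP-ifKOs was 0.07, and without EE-housed CBP-ifKO 1 it was 0.30. In bulk tissue, fewer cells of a type and less RNA per cell cannot be told apart, for Ppp1r1a or for any gene described here.

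Ppp1r1b encodes DARPP-32, which blocks PP1 after phosphorylation by PKA and is best known from striatal projection neurons. It had 30.4, 25.4 and 28.2 CPM in SC-housed control mice and 19.9, 24.9 and 22.5 in SC-housed CBP-ifKOs. In EE it had 40.2, 27.5 and 33.6 CPM in control mice and 22.4, 22.8 and 24.6 in CBP-ifKOs. The CBP-ifKOs lay below the control mice in both housings, by a narrow gap in SC, and EE-housed control mouse 1 had the highest value of the 12. The genotype change of Ppp1r1b was -0.53 in EE (SE 0.12, edgeR adjusted p = 0.0276) and -0.32 in SC (SE 0.10, edgeR adjusted p = 0.0772), and DESeq2 called the SC change as well (adjusted p = 0.0363). Of the 6 fits that left out 1 EE-housed mouse, the call in EE was kept without control mouse 2 (-0.66, edgeR adjusted p = 0.00360). It was lost without control mouse 1, the mouse with choroid plexus RNA (-0.39, edgeR adjusted p = 0.0618), control mouse 3 (0.0924) or CBP-ifKO 1, 2 or 3 (0.0811, 0.0945 and 0.0804). In SC, only leaving out control mouse 2 gave a call for Ppp1r1b (-0.39, edgeR adjusted p = 0.0240), and the edgeR adjusted p reached 0.243 in the other fits.

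Ppp1r2 encodes inhibitor-2, which binds the catalytic subunit of PP1 directly and needs no phosphorylation by PKA to inhibit it. It had 69.9, 58.6 and 64.9 CPM in SC-housed control mice and 51.9, 53.9 and 53.6 in SC-housed CBP-ifKOs. In EE it had 66.0, 60.4 and 62.1 CPM in control mice and 55.2, 50.2 and 55.5 in CBP-ifKOs. All 6 CBP-ifKOs lay below all 6 control mice, and the 2 housings overlapped within each genotype. The genotype change of Ppp1r2 was -0.28 in SC (SE 0.07, edgeR adjusted p = 0.0353) and -0.22 in EE (SE 0.07, edgeR adjusted p = 0.0912), and DESeq2 called the EE change as well (adjusted p = 0.0460). The call in SC was kept without control mouse 2 (-0.34, edgeR adjusted p = 0.00353) and lost without control mouse 1 (-0.21, 0.127) or 3 (0.124), or CBP-ifKO 1, 2 or 3 (0.136, 0.109 and 0.105). The summed RPKM of Ppp1r1a, Ppp1r1b and Ppp1r2 was 74.2 ± 8.32 (SD, n = 3) in SC-housed control mice, 53.4 ± 1.52 in SC-housed CBP-ifKOs, 89.5 ± 5.97 in EE-housed control mice and 58.4 ± 6.51 in EE-housed CBP-ifKOs. That sum includes Ppp1r1a and carries its selection.

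**Figure D2:**
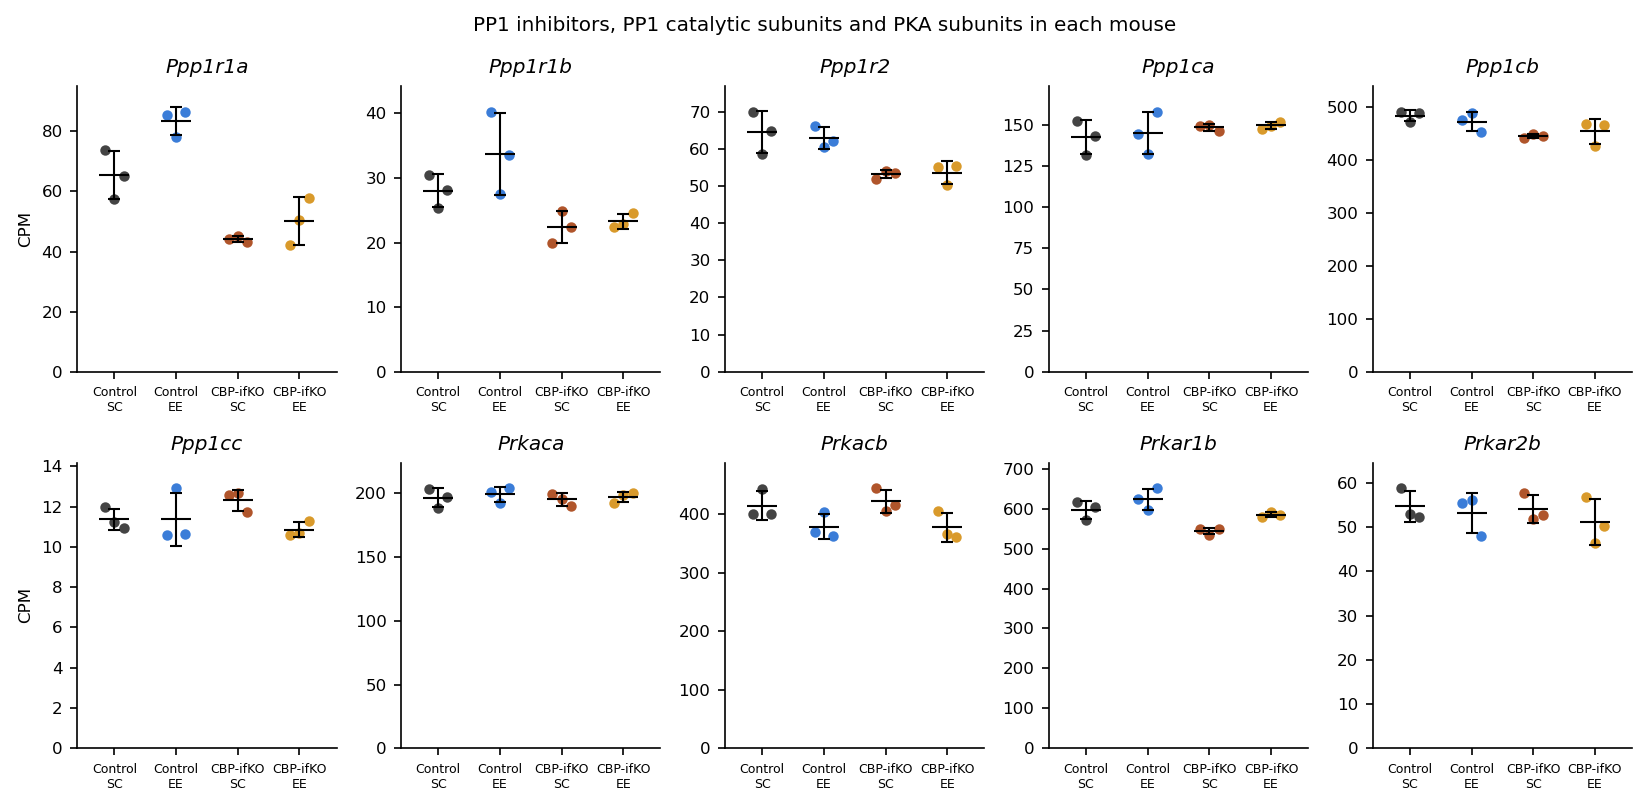
CPM of each of the 10 genes by group, with 1 point per mouse, a line at the group mean and bars of 1 SD (n = 3). For Ppp1r2 the CBP-ifKOs lie between 50.2 and 55.5 CPM, all below the control mice, whereas the groups of Prkaca overlap.

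The PP1 catalytic subunits are the phosphatase itself, in 3 forms from separate genes. Ppp1ca, the alpha form, had 142 ± 10.2 CPM (SD, n = 3) in SC-housed control mice, 148 ± 2.06 in SC-housed CBP-ifKOs, 145 ± 12.7 in EE-housed control mice and 149 ± 1.97 in EE-housed CBP-ifKOs, and the groups overlapped. Ppp1cb, the beta form, had 490, 472 and 488 CPM in SC-housed control mice and 441, 449 and 446 in SC-housed CBP-ifKOs, a gap that was absent in EE, where group means were 472 ± 17.6 and 454 ± 23.6. Its genotype change in SC was -0.12 (SE 0.05, edgeR adjusted p = 0.168). Of the 6 fits that left out 1 SC-housed mouse, only that without control mouse 2 called it (-0.14, edgeR adjusted p = 0.0443). The edgeR adjusted p reached 0.428 in the others. Ppp1cc, the gamma form, stayed between 10.6 and 12.9 CPM in all 12 mice, with genotype changes of 0.11 (SE 0.09) in SC and -0.06 (SE 0.11) in EE. The summed RPKM of the 3 catalytic genes was 104 ± 5.03 (SD, n = 3) in SC-housed control mice and 103 ± 1.03 in SC-housed CBP-ifKOs, and 104 ± 3.11 and 104 ± 2.39 in EE.

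The PKA catalytic subunits carry the kinase activity. Prkaca, the alpha form, lay between 188 and 204 CPM in all 12 mice and had genotype changes of -0.01 in both housings (SE 0.05 in SC and 0.06 in EE). Prkacb, the beta form, had 400.5, 443 and 399.5 CPM in SC-housed control mice and 444, 405 and 416 in SC-housed CBP-ifKOs. In EE it had 370, 403 and 363 CPM in control mice and 405, 365 and 361 in CBP-ifKOs. The genotypes overlapped for Prkacb in both housings, and the 3 EE-housed CBP-ifKOs lay below the 3 SC-housed ones by a narrow margin. The EE change of Prkacb was -0.16 (SE 0.06, edgeR adjusted p = 0.502) in CBP-ifKOs and -0.13 (SE 0.06, edgeR adjusted p = 0.999) in control mice, neither of which passed. Leaving out 1 mouse moved the value in control mice between -0.18 (without EE-housed control mouse 2) and -0.08 (without SC-housed control mouse 2).

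The regulatory subunits bind cAMP and hold the catalytic subunits, Prkar1b as a type I and Prkar2b as a type II subunit. Prkar1b had 616, 573 and 604 CPM in SC-housed control mice and 548, 534 and 549 in SC-housed CBP-ifKOs. In EE it had 624, 598 and 651 CPM in control mice and 579, 591 and 583 in CBP-ifKOs. CBP-ifKOs lay below control mice in each housing, and in CBP-ifKOs the 3 EE-housed mice lay above the 3 SC-housed mice. The genotype changes of Prkar1b were -0.14 in SC (SE 0.05, edgeR adjusted p = 0.130) and -0.09 in EE (SE 0.06, edgeR adjusted p = 0.432), and the EE change in CBP-ifKOs was 0.10 (SE 0.05, edgeR adjusted p = 0.557). Of the 6 fits that left out 1 SC-housed mouse, only that without control mouse 2 called the SC change (-0.17, edgeR adjusted p = 0.0212). The edgeR adjusted p reached 0.362 in the others. The genotype change of Prkar1b in EE lay between -0.12 and -0.05 with 1 mouse left out. Prkar2b lay between 46.3 and 58.7 CPM in the 12 mice, with overlapping groups and genotype changes of -0.02 and -0.05.

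Prkar1a and Prkar2a, the remaining regulatory subunits, had genotype changes between -0.03 and 0.01 in the 2 housings, and no group of either gene separated from another. The ratio of summed regulatory to summed catalytic PKA RPKM was 3.00, 2.91 and 3.03 in SC-housed control mice and 2.73, 2.82 and 2.93 in SC-housed CBP-ifKOs. In EE it was 3.07, 3.11 and 3.07 in control mice and 3.01, 2.96 and 3.02 in CBP-ifKOs. The genotypes overlapped for this ratio in SC and did not overlap in EE, where the gap was smaller than the spread of the SC-housed CBP-ifKOs.

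**Figure D3:**
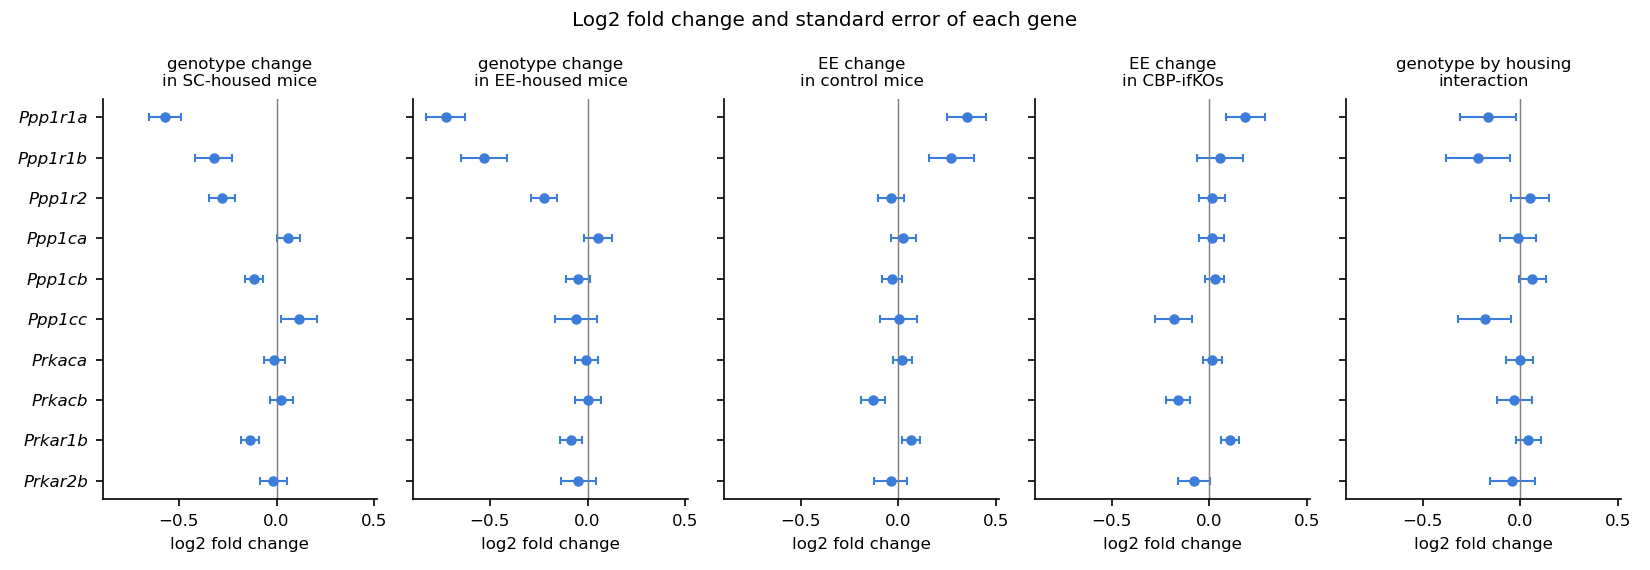
Log2 fold change (points) and standard error (bars) of each of the 10 genes in the 5 comparisons. The PP1 inhibitors lie farthest below 0 between genotypes, with Ppp1r1a at -0.57 in SC and -0.73 in EE.

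Counted over the 10 genes, 2 (Ppp1r1a and Ppp1r2) were called lower and 0 higher between genotypes in SC, where 4.02% of 17532 genes were called lower and 1.51% higher. The groups of 5 of the 10 did not overlap, against 25.9% of all genes. In EE, 2 (Ppp1r1a and Ppp1r1b) were called lower and 0 higher, against 3.53% and 1.03% of 17625 genes, and 4 of the 10 did not overlap, against 25.3%. Nothing is read from these counts, because Ppp1r1a was selected on these contrasts. Of the 9 other genes, edgeR called 1 in each housing and DESeq2 called 2, Ppp1r1b and Ppp1r2. Over all genes, DESeq2 called 1300 of 17532 in SC and 1296 of 17625 in EE. Without adjustment, 4 of the 9 other genes in SC and 2 in EE had p below 0.05, all lower. Over all genes tested, 3593 of 17532 in SC and 3448 of 17625 in EE did, in either direction. In single fits without 1 SC-housed mouse, 5 of the 10 were called without control mouse 2 and 1, Ppp1r1a, without any of the other 5. In EE, the fit without control mouse 2 called 2 of the 10, and each of the other 5 fits called 1. The median change of the 10 genes was -0.07 in SC and -0.05 in EE, beside -0.00 and 0.01 over all genes tested.

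Between housings, edgeR called 0 of the 10 genes in control mice, where 0% of 18251 genes were called, and 0 in CBP-ifKOs, where 0.011% were. DESeq2 also called 0 of the 10 in each genotype, with 15 and 54 calls over all genes. At an unadjusted p below 0.05 edgeR counted 1 of the 9 tested genes in control mice (Ppp1r1b, higher in EE) and 2 in CBP-ifKOs (Prkar1b, higher, and Prkacb, lower), beside 768 and 1567 of all genes. The groups of 1 gene, Ppp1r1a, did not overlap between housings in control mice, against 9.11% of all genes, and in CBP-ifKOs those of 3 genes did not (Prkar1b higher, Ppp1cc and Prkacb lower), against 15.9%. The EE change of Ppp1r1b in control mice was 0.27 (SE 0.12, edgeR adjusted p = 0.999), and without EE-housed control mouse 1, with its choroid plexus RNA, it was 0.13, and 0.40 without EE-housed control mouse 2. The same omission left Ppp1r1a at 0.33 in control mice, beside 0.35 with that mouse. The part of that RNA in either gene's value was not tested.

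In the test of the genotype by housing interaction, edgeR called 0 of the 10 genes, as it did 0% of all 18251, with 0 of the 9 tested genes and 574 of all genes at an unadjusted p below 0.05, and DESeq2 called 0. The interaction values were -0.22 (SE 0.17) for Ppp1r1b, -0.18 (SE 0.14) for Ppp1cc and 0.05 (SE 0.09) for Ppp1r2, and leaving out 1 mouse moved the first 2 between -0.34 and -0.07 and between -0.23 and -0.08. Those of the other 6 tested genes lay between -0.04 and 0.06, and between -0.12 and 0.10 with 1 mouse left out. A difference of the genotype change between housings is therefore not shown for Ppp1r1b or Ppp1r2, although each was called in 1 housing.

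Markers of hippocampal cell types were read beside the inhibitors. The 6 CA1 pyramidal cell markers, with Mpped1 the most abundant, summed to 193, 182 and 176 RPKM in SC-housed control mice and 138, 134 and 138 in CBP-ifKOs, and to 189, 176 and 193 against 137, 128 and 125 in EE. The 6 dentate granule cell markers, led by Calb1, summed to 99.4, 86.8 and 97.2 RPKM against 75.2, 78.5 and 72.7 in SC, and to 84.6, 94.7 and 101 against 68.5, 68.2 and 66.4 in EE. The 6 CA3 and CA2 markers, led by Bok, summed to 109.8, 111 and 109.6 RPKM against 79.2, 90.2 and 85.8 in SC, and to 118, 129 and 121 against 87.0, 94.3 and 97.3 in EE. These sums were lower in every CBP-ifKO than in every control mouse of its housing, as were Ppp1r1a, Ppp1r1b and Ppp1r2 and, as given below, sums for some other cells; the part of any of these cells in the lower inhibitor RNA was not tested. In SC and EE, edgeR called 3 and 3 of the CA1 markers lower, 2 and 3 of the dentate markers lower (and 1 and 0 higher) and 2 and 2 of the CA3 and CA2 markers lower. Single markers did not all follow their sums. Calb1 itself had 35.9 RPKM in control mice and 37.8 in CBP-ifKOs in SC, and 34.5 and 34.9 in EE. Of the 6 dentate markers 3 had a change above 0 in SC and 2 in EE, with medians of -0.03 and -0.31 and lowest values of -1.60 and -1.91. Bok had 33.5 and 34.2 RPKM in SC and 41.4 and 39.1 in EE, while the CA3 and CA2 list had 1 and 0 changes above 0, with medians of -0.39 and -0.36. All 6 CA1 markers had a change below 0 in both housings.

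The 6 general excitatory markers, led by Camk2a, summed to 1455 ± 75.9 RPKM (SD, n = 3) in SC-housed control mice, 1329 ± 44.7 in SC-housed CBP-ifKOs, 1542 ± 79.1 in EE-housed control mice and 1296 ± 78.8 in EE-housed CBP-ifKOs, with 1 of 6 called lower in each housing. Each CBP-ifKO lay below each control mouse of its housing for this sum too, by a narrow gap in SC, although 4 of the 6 genes had a change above 0 in SC (median 0.04) and 2 in EE (median -0.06), and Camk2a had 549 RPKM in control mice and 562 in CBP-ifKOs in SC, and 566 and 525 in EE. For DARPP-32 the striatal projection neuron markers bear on the tissue: the 8 genes, led by Foxp1, summed to between 13.6 and 17.0 RPKM in the 12 mice, with 1 of the 8 at 3 counts or fewer in every mouse. Neither housing had a call among them by edgeR or DESeq2, with 2 genes lower at an unadjusted p below 0.05 in each. Their sum for EE-housed control mouse 1, where Ppp1r1b was highest, was 16.9 RPKM, against 14.8 and 15.8 in the other 2 mice of that group. The sum did not follow Ppp1r1b over all mice. It was 16.6 RPKM in SC-housed CBP-ifKO 1, where Ppp1r1b was lowest, and highest, at 17.0, in SC-housed control mouse 3. The part of striatal tissue in Ppp1r1b was not tested.

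Some sums for other cells were also lower in every CBP-ifKO than in every control mouse of its housing. The interneuron markers summed to 404, 345 and 405 RPKM in SC-housed control mice and 317, 321 and 340 in CBP-ifKOs, and to 423, 365 and 424 against 358, 341 and 354 in EE. Sst alone had means of 231 RPKM in control mice and 182 in CBP-ifKOs in SC, and 249 and 201 in EE. The median change of the 8 interneuron genes was -0.09 in SC and -0.05 in EE, with 1 and 2 genes above 0. The endothelial sum (51.7, 44.8 and 46.9 against 41.3, 38.3 and 39.3 RPKM) and the choroid plexus sum (26.7, 23.0 and 22.9 against 10.3, 9.68 and 11.8) separated the genotypes in SC alone, and the astrocyte sum (435, 452 and 428 against 387, 392 and 396) in EE alone, whereas the microglia sum overlapped in both housings.

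Among the lists of other cells given here, the interneuron list (8 genes, led by Sst) had 1 gene called lower in SC and 0 in EE, the endothelial list (5, Cldn5) 1 and 0, and the choroid plexus list (6, Ttr) 1 and 0. Astrocyte (7 genes, led by Slc1a2) and microglia lists (6, C1qa) had 0 calls by edgeR in both housings. At an unadjusted p below 0.05 the zero counts in EE became 1 interneuron gene higher and 1 lower, 1 endothelial gene higher, and 4 choroid plexus, 3 astrocyte and 2 microglia genes lower, and in SC 2 astrocyte genes and 1 microglia gene lower, of which DESeq2 called 0. DESeq2 called 1 interneuron, 2 astrocyte and 1 microglia gene lower and 1 endothelial gene higher in EE, where edgeR called none of these lists. A further list of 7 genes for other cells, left unnamed here, had 2 genes called lower in SC by edgeR and by DESeq2. In EE both tools called 0 of that list, with 1 gene lower at an unadjusted p below 0.05.

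The wider pathway was read from 122 further genes in 8 lists. Between genotypes in SC, edgeR called 2 of the 114 tested genes higher and 5 lower, with a median of -0.07, and in EE it called 1 of 112 higher and 9 lower, with a median of -0.06. Both directions together, these were 6.14% in SC, close to the 5.52% of all genes, and 8.93% against 4.57% in EE. In each of these calls all 3 CBP-ifKOs lay on the same side of all 3 control mice. Calls moved with single mice: in SC they numbered 16 without control mouse 2, 9 without control mouse 1, 2 without control mouse 3 or CBP-ifKO 1 or 2, and 3 without CBP-ifKO 3. In EE they numbered 10 without control mouse 2, 8 without control mouse 1, 2 without control mouse 3 or CBP-ifKO 1, 4 without CBP-ifKO 2 and 3 without CBP-ifKO 3.

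Spinophilin and the regulatory subunit of calcineurin were the pathway genes whose calls held in all 6 single-mouse omissions in both housings. Ppp1r9b encodes spinophilin, which targets PP1 to dendritic spines, and had 940, 838 and 924 CPM in SC-housed control mice and 663, 698 and 665 in CBP-ifKOs, and 892, 856 and 976 against 639, 703 and 638 in EE. Each CBP-ifKO lay far below each control mouse. Its changes were -0.42 (SE 0.05, edgeR adjusted p = 0.00170) in SC and -0.45 (SE 0.07, edgeR adjusted p = 0.00387) in EE. Ppp3r1 encodes calcineurin B, part of the phosphatase that dephosphorylates inhibitor-1 and DARPP-32, and had 1276, 1262 and 1217 CPM against 1013, 1069 and 1026 in SC and 1254, 1357 and 1256 against 977, 1033 and 1042 in EE. Again no CBP-ifKO reached a control mouse, and the changes were -0.27 (SE 0.05, edgeR adjusted p = 0.00696) in SC and -0.33 (SE 0.05, edgeR adjusted p = 0.00592) in EE. Calcineurin's catalytic gene Ppp3ca fell in EE (-0.30, SE 0.06, edgeR adjusted p = 0.0175), a call that was lost without control mouse 3 (0.0803) or CBP-ifKO 1 (0.0574) or 2 (0.0550).

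The other PP1 regulatory and targeting subunits gave 1 higher and 2 lower of 32 in SC (median -0.06) and 0 higher and 2 lower in EE (median -0.08). Beside Ppp1r9b these were Ppp1r26, a nuclear PP1 partner (0.34, edgeR adjusted p = 0.0235), and Phactr3, which binds PP1 and actin (-0.25, edgeR adjusted p = 0.0273), in SC, and Phactr1 of the same family (-0.27, edgeR adjusted p = 0.0208) in EE. Ppp1r26 kept its call without SC-housed control mouse 1 or 2 and lost it without control mouse 3 (0.103) or CBP-ifKO 1, 2 or 3 (0.0942, 0.0950 and 0.0546). Phactr3 kept its call without control mouse 2 and lost it without control mouse 1 or 3 (0.0783 and 0.103) or CBP-ifKO 1, 2 or 3 (0.0667, 0.0755 and 0.122). Phactr1 lost its call without EE-housed control mouse 3 (0.0756) or CBP-ifKO 1 or 3 (0.101 and 0.118).

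Other inhibitor proteins of PP1 (4 of 7 genes tested) had no call by edgeR or DESeq2 and none at an unadjusted p below 0.05 in either housing, with medians of -0.05 and -0.01. The genes with the smallest p were Ppp1r14a in SC (-0.19, SE 0.15, and between -0.30 and -0.03 with 1 mouse left out) and Ppp1r14c in EE (-0.14, SE 0.09, and between -0.18 and -0.08). The list of calcineurin, PP2A and Cdk5 genes, which act on the inhibitors, had 0 higher and 1 lower of 15 in SC (median -0.07) and 0 higher and 2 lower of 14 in EE (median -0.05), all of them calcineurin genes.

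Upstream of PKA, the adenylyl cyclases and G protein alpha subunits had 0 higher and 1 lower of 17 in SC (median -0.07) and 0 higher and 3 lower in EE (median 0.06). Adcy5 fell in SC (-0.22, SE 0.05, edgeR adjusted p = 0.0337) and lost its call without control mouse 3 (0.115) or CBP-ifKO 1, 2 or 3 (0.0962, 0.157 and 0.104). Adcy1, the cyclase stimulated by calcium and calmodulin, fell in EE (-0.45, SE 0.10, edgeR adjusted p = 0.0285), from 948, 1273 and 1080 CPM in control mice to 705, 875 and 816 in CBP-ifKOs. The groups of Adcy1 did not overlap, and the call was kept only without control mouse 1, with adjusted p-values of 0.0516 and 0.0894 without control mouse 2 or 3 and 0.10, 0.0502 and 0.112 without CBP-ifKO 1, 2 or 3. Gnaz (-0.24, SE 0.06, edgeR adjusted p = 0.0391) was called in EE and, among single omissions, only without control mouse 2, at 0.120 and 0.119 without control mouse 1 or 3 and 0.106, 0.0838 and 0.173 without CBP-ifKO 1, 2 or 3. The third gene called in EE had a larger p and is left unnamed. Its call was lost without control mouse 3 or CBP-ifKO 1, where the 2 pathway genes called were Ppp1r9b and Ppp3r1. Whether it holds in the other single omissions is not given.

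The phosphodiesterases, which degrade cAMP, had 0 of 16 called in SC by edgeR (3 lower at an unadjusted p below 0.05 and 2 lower by DESeq2; median -0.11) and 0 higher and 1 lower in EE (median -0.14). That gene, Pde1b, fell in EE (-0.32, SE 0.07, edgeR adjusted p = 0.0199) and was -0.24 in SC (SE 0.07, edgeR adjusted p = 0.0571). Its EE call was lost without control mouse 3 (0.0894) or CBP-ifKO 1 or 3 (0.0913 and 0.0908). In SC, among single omissions, edgeR called it only without control mouse 2 (-0.31, 0.00592). With all mice kept, 4 of 7 alternatives called the SC change. Among them were DESeq2 (-0.24, DESeq2 adjusted p = 0.0144) and edgeR without the filter on low counts (-0.26, edgeR adjusted p = 0.00489).

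Among the cAMP effectors other than PKA, 1 of 9 was called higher and 1 lower in SC (median -0.13) and 0 in EE (1 higher at an unadjusted p below 0.05 and 1 higher by DESeq2; median -0.07). Hcn3, of the HCN family of ion channels, had 14.96, 13.6 and 13.7 CPM in SC-housed control mice and 18.7, 17.3 and 18.5 in CBP-ifKOs, a change of 0.37 (SE 0.08, edgeR adjusted p = 0.0255). Popdc3, of the cAMP-binding Popeye family, had 7.24, 6.31 and 8.75 CPM against 4.36, 4.78 and 4.93, a change of -0.66 (SE 0.15, edgeR adjusted p = 0.0222). For both genes the genotypes did not overlap in SC. Without control mouse 3 or CBP-ifKO 1, 2 or 3 the adjusted p was 0.101, 0.0986, 0.0605 and 0.0930 for Hcn3 and 0.114, 0.0887, 0.0741 and 0.0553 for Popdc3.

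The remaining PKA subunits and inhibitor peptides had 0 of 6 called in SC by edgeR (1 lower at an unadjusted p below 0.05, 0 by DESeq2; median -0.02) and 0 higher and 1 lower in EE (median 0.01). Pkig, which encodes a peptide inhibitor of the PKA catalytic subunit, fell in EE (-0.34, SE 0.08, edgeR adjusted p = 0.0271). That call was kept without control mouse 2 and lost without control mouse 1 or 3 (0.0522 and 0.111) or CBP-ifKO 1, 2 or 3 (0.0914, 0.0960 and 0.0739). In SC the change of Pkig was -0.22 (edgeR adjusted p = 0.215), and it was called without control mouse 2 (-0.31, 0.0280) and was -0.09 without control mouse 1 (0.636). The A-kinase anchoring proteins, which place PKA in the cell, had 0 of 15 called in SC by edgeR (4 higher and 1 lower at an unadjusted p below 0.05, 0 by DESeq2; median -0.03) and 1 higher and 0 lower of 14 in EE (median -0.07). Akap12 rose in EE (0.38, SE 0.09, edgeR adjusted p = 0.0384), and the call was kept only without control mouse 1, at 0.0616 and 0.105 without control mouse 2 or 3 and 0.120, 0.0825 and 0.109 without CBP-ifKO 1, 2 or 3. Akap13 had the smallest p of the list in SC (-0.36, SE 0.13, edgeR adjusted p = 0.127) and was called without control mouse 1 (-0.52, 0.00325) but was -0.19 without control mouse 2 (0.235).

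Between housings, edgeR and DESeq2 called 0 of the 115 tested pathway genes in control mice and 0 in CBP-ifKOs, and 0 for the interaction; at an unadjusted p below 0.05 there were 6, 8 and 2. The medians over the 8 lists together were -0.02 in control mice, -0.03 in CBP-ifKOs and -0.02 for the interaction, beside 0.00, -0.00 and -0.01 over all genes. In control mice the genes with the smallest p of their lists included Akap12 (-0.24, SE 0.09), Pkia (-0.13, SE 0.05), Ppp1r3c (-0.28, SE 0.11), Pde1c (-0.26, SE 0.14), Adcy1 (0.24, SE 0.12), Popdc3 (-0.29, SE 0.14), Cdk5r2 (0.21, SE 0.10) and Ppp1r11 (0.03, SE 0.07). In CBP-ifKOs they were Pde7b (-0.34, SE 0.12), Prkx (-0.23, SE 0.08), Akap10 (-0.19, SE 0.08), Csnk2b (0.17, SE 0.07), Gnao1 (-0.13, SE 0.05), Rapgef3 (0.13, SE 0.10), Phactr1 (-0.12, SE 0.06) and Ppp1r14c (-0.10, SE 0.08). For the interaction they were Adcy4 (0.83, SE 0.32), Popdc3 (0.36, SE 0.20), Akap10 (-0.31, SE 0.12), Pde3b (-0.29, SE 0.15), Prkx (-0.16, SE 0.12), Csnk2b (0.15, SE 0.09), Phactr1 (-0.13, SE 0.08) and Ppp1r14c (-0.12, SE 0.12). None of these passed the test, and single mice moved many of them. Without 1 mouse the values in control mice ran from 0.13 to 0.40 for Adcy1, -0.39 to -0.15 for Popdc3, -0.36 to -0.16 for Ppp1r3c, 0.13 to 0.31 for Cdk5r2 and -0.04 to 0.09 for Ppp1r11. In CBP-ifKOs they ran from 0.06 to 0.20 for Rapgef3 and -0.14 to -0.03 for Ppp1r14c, and for the interaction from -0.22 to -0.10 for Prkx, -0.16 to -0.05 for Ppp1r14c, -0.18 to -0.08 for Phactr1, 0.22 to 0.46 for Popdc3 and 0.09 to 0.21 for Csnk2b.

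The genes most like Ppp1r1a across the 12 mice were found by Pearson's correlation of log2 CPM among 18250 other genes, as a description with no p. Sema7a (r = 0.976), Wdr1 (0.976), Ndrg3 (0.964), Nefl (0.963) and Epdr1 (0.962) came first. Of the pathway's own genes, Ppp1r1b (0.892) ranked 177, Prkar1b (0.872) 268 and Ppp1r2 (0.815) followed, while Prkacb was at -0.467. These mice fall into groups that differ in Ppp1r1a, so the group means were removed as well, and the first genes became Acot5 (0.977), Kctd1 (0.976), Arl16 (0.956), Pccb (0.956) and Emx1 (0.956). Within groups, Prkaca ranked 214 with r = 0.799 and Prkacb lay near the other end, ranking 18052 with r = -0.795, whereas Ppp1r1b was at 0.544, Ppp1r2 at 0.498 and Prkar1b at 0.561. The mice share libraries and scaling across genes, and the values describe these 12 libraries.

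In GRCm38 the inhibitor genes lie apart. Ppp1r1a (ENSMUSG00000022490) lies on chromosome 15 from 103530279 to 103538003, Ppp1r1b (ENSMUSG00000061718) on chromosome 11 from 98348404 to 98357796, and Ppp1r2 (ENSMUSG00000047714) on chromosome 16 from 31251537 to 31275277. The nearest protein-coding gene to Ppp1r1a is the phosphodiesterase gene Pde1b, from 103503034 to 103530052 on the opposite strand, so that the 3′ ends of the 2 genes face each other across 226 bases. The exons of Ppp1r1a and Pde1b do not overlap, and both genes were lower in CBP-ifKOs in each housing, with the values given above. Ppp1r1b has Neurod2 18755 bases to one side and Stard3 571 bases to the other.

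The catalytic and regulatory genes are spread over more chromosomes. Ppp1ca (ENSMUSG00000040385) lies on chromosome 19 from 4192065 to 4195420, Ppp1cb (ENSMUSG00000014956) on chromosome 5 from 32458843 to 32517433, and Ppp1cc (ENSMUSG00000004455) on chromosome 5 from 122158278 to 122175273. Prkaca (ENSMUSG00000005469) lies on chromosome 8 from 83972993 to 83996443 and Prkacb (ENSMUSG00000005034) on chromosome 3 from 146729574 to 146812990. Prkar1b (ENSMUSG00000025855) lies on chromosome 5 from 139017306 to 139150001 and Prkar2b (ENSMUSG00000002997) on chromosome 12 from 31958476 to 32061296. Ppp1cb, Ppp1cc and Prkar1b thus share chromosome 5 at separate places, and the start of Prkar1b lies 221 bases from that of Dnaaf5 on the opposite strand.

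Some of these genes share sequence with others at the read length of 50 bases, which bears on what their counts hold. Of the 50-base stretches in their transcripts, 1421 of the 3553 of Ppp1cc also occur in another gene, 1383 of them in Ppp1ccb, and reads that fit both genes may have been left out by the limit on mapping quality, which would lower its counts. The share was 16.4% for Ppp1cb (with Gm43312 on the same strand), 10.8% for Ppp1ca (with Rad9a and AC109138.6 on the opposite strand), 9.11% for Ppp1r2 (with its processed pseudogenes), 8.98% for Ppp1r1b and 7.79% for Prkar1b (with Gm15672). For Ppp1r1b the shared stretches lie in 1700003D09Rik on the opposite strand, which covers 460 of its 2928 exonic bases, and the strandedness of the counting is not stated. The transcripts of Ppp1r1a, Prkacb and Prkar2b share no stretch of that length with another gene, and those of Prkaca share 0.328%.

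CBP binds CREB, so the promoters were searched for the short CREB motif TGACG on both strands in the 250 bases before each start, with sequences from RefSeq on GRCm38.p6. RefSeq's table held 15 promoters of 7 of the 10 genes, and Ppp1r1a, Ppp1r1b and Ppp1ca have no entry. The short motif was found in 3 of the 15 promoters, those of Prkacb, Prkar1b and Prkaca, against 17.8% of 32851 promoters of all genes. No promoter of the 7 genes held the full CRE (TGACGTCA, which contains the short motif), which 1.55% of all promoters hold. The matches are shown because they lie in kinase subunit genes, of which none passed the genotype test, with the short motif or its reverse complement in capitals, 5′ to 3′ on the strand of the gene. They lie at chr3:146813031-146813060 (minus strand), chr5:139150033-139150062 (minus strand), chr8:83972846-83972875 and chr8:83972960-83972977 (plus strand), and a match is a description of these letters alone.
Prkacb: ggggcttgaccgCGTCActtccggcgcgcc
Prkar1b: tagagggcggagTGACGggcaggaggacga
Prkaca, first: gtctgcaactcgCGTCActcatccaggagc
Prkaca, second: gggctgcgggggCGTCAc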

How the data were processed

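The members and gene lists were chosen with earlier results of these data known. RNA was measured in hippocampi of 12 mice as 50-base single-end reads, and 2 runs per mouse were merged. Per the submitters' processing notes, the authors used FastQC 0.11.8, Trim Galore 0.6.4, STAR 2.6.1 and their own DESeq2 1.30.1. The deposited table holds raw counts, 1 per gene and mouse, which the authors made with Rsubread on exons of Ensembl GRCm38 from alignments with a mapping quality above 10. The deposited table's other column holds gene lengths in bases, used for RPKM.

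edgeR 4.0.16 (R 4.3.3) was run with filterByExpr, TMM scaling and its quasi-likelihood F test, with p-values adjusted by Benjamini-Hochberg. Genotypes were compared within the 6 SC-housed and the 6 EE-housed mice, housings and the interaction in 1 fit of 12 mice. Correlations used a prior count of 2. Of 55471 genes, 55144 have a symbol. The fits were tested on simulated data. Named genes are the 10 members, Crebbp, and of each pathway list and comparison up to 2 called genes per direction with the smallest p, or else the 1 gene with the smallest p; the 5 genes most like Ppp1r1a; and the most abundant gene of each marker list given. Alternatives were DESeq2 1.42.0, RLE size factors, no filter or a minimum of 1 CPM in 3 mice, a replicate block, halved CBP-ifKO counts, genotype contrasts in the fit of 12 mice and leaving out each mouse. Other screens and ChIP-seq data of the study were left out, as they hold other samples. Depth limits precision through counting error and the spread between mice, which the fit covers together for the counts as deposited. Even values throughout were found in every CBP-ifKO and in no control mouse. Genotype contrasts thus compare libraries whose counts differ in this way, which cannot be told apart from genotype, and the cause was not tested.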

Additional observations from a re-analysis of the deposited data

How the results depend on the processing

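No call given for a named gene ended under an alternative that kept all mice (154 values, with nothing read from those of Ppp1r1a), 16 values gained a call, and 60 of the 132 fits that left out 1 mouse ended one, as given beside each gene. RLE size factors kept the share of higher calls between genotypes within 10 points (27.3% to 28.4% in SC, 22.6% to 20.3% in EE).

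Values under 0.1 in size changed sign. The genotype change of Prkacb in EE was 0.00340 and became -0.00382 with DESeq2, -0.00386 with RLE, -0.0157 without the filter, -0.00245 with the 1 CPM filter, -0.00366 with halved CBP-ifKO counts and -0.00591 in the fit of 12 mice. The called pathway genes in SC numbered 7, but 12 with DESeq2 and 14 without the filter, while calls over all genes rose as well, from 968 to 1300 and 1512; in EE 10, but 17 without the filter and 16 in the fit of 12 mice, with 805, 1677 and 1293 over all genes. Without the filter edgeR also called 2 pathway genes between housings in control mice and 1 for the interaction (145 and 110 of all genes), against 0 each, and 1 member, Ppp1r1a, in control mice, which was selected on that change, so nothing is read from its call. The cause was not tested.

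The replicate block left the called members at 2 in each housing, raised the called pathway genes from 7 to 10 in SC and from 10 to 12 in EE, and turned the EE change of Ppp1cc in control mice from 0.000201 to -0.00194. It called 1041, 1089, 0, 17 and 0 of all genes in the 5 comparisons, against 968, 805, 0, 2 and 0. The labels do not say whether replicate numbers pair mice: 18 of 36 best matches between groups shared a number, and the mean correlation of mice with the same number was 0.0431 between genotypes in SC and 0.0907 in EE (different numbers -0.0216 and -0.0453), and between housings 0.176 in control mice and -0.00108 in CBP-ifKOs (-0.0880 and 0.000582).

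Leaving out 1 mouse, the called members ranged from 1 to 5 in SC and 1 to 2 in EE, and the pathway genes from 2 to 16 and 2 to 10. Genotype changes in SC ranged from -0.0404 to 0.01995 for Prkaca, -0.0125 to 0.0746 for Prkacb and -0.0651 to 0.0428 for Prkar2b. In EE they ranged from -0.00986 to 0.123 for Ppp1ca, -0.109 to 0.0364 for Ppp1cc, -0.0342 to 0.0138 for Prkaca, -0.0535 to 0.0473 for Prkacb and -0.132 to 0.0161 for Prkar2b. EE changes in control mice ranged from -0.101 to 0.0260 for Ppp1r2, -0.0404 to 0.0855 for Ppp1ca, -0.0989 to 0.0498 for Ppp1cc, -0.00993 to 0.0459 for Prkaca, -0.0810 to 0.0292 for Prkar2b and -0.0363 to 0.0918 for Ppp1r11. In CBP-ifKOs they ranged from -0.0248 to 0.134 for Ppp1r1b, -0.0118 to 0.0589 for Ppp1r2 and -0.00400 to 0.0325 for Prkaca. Interaction values ranged from -0.0123 to 0.114 for Ppp1r2, -0.0730 to 0.0531 for Ppp1ca, -0.0301 to 0.0259 for Prkaca, -0.0854 to 0.0181 for Prkacb and -0.123 to 0.0259 for Prkar2b.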
